A study of Vachellia cornigera with 24 samples.

Results

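The 5 genes described here make, cleave and carry sucrose in the nectaries of Acacia cornigera (Vachellia cornigera), a tree that feeds resident ants with sugar from glands on its leaf stalks. They were chosen by locus, as 5 of the 12650 genes in the deposited table of normalised counts, by a rule that uses no measured value, though with earlier results of these data known. Each is named for the closest Arabidopsis thaliana locus. SPS1F (AT5G20280) is a sucrose-phosphate synthase, SUS1 (AT5G20830) and SUS3 (AT4G02280) are sucrose synthases, STP1 (AT1G11260) is a sugar transporter and SUC2 (AT1G22710) is a sucrose-proton symporter. All 5 passed the filter on low values, which asked for an average of 10 or more across the libraries.

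In plants, sucrose-phosphate synthase forms sucrose phosphate from UDP-glucose and fructose 6-phosphate, and a phosphatase then releases sucrose. Sucrose synthase, despite its name, mostly runs the other way and splits sucrose into fructose and UDP-glucose, while invertases split it into glucose and fructose. In Arabidopsis, SUC2 loads sucrose into companion cells of the phloem, and STP1 takes up glucose and other hexoses across the plasma membrane. In floral nectaries of other species, sucrose made in the gland leaves the cells through the exporter SWEET9 and is cleaved in the cell wall by the invertase CWINV4.

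Total RNA of extrafloral nectaries, collected in the field in May and pooled over different plants for each biological replicate, was sequenced as 24 libraries in 10 groups. Nectaries with no labelled treatment were sampled at 9 am (3 libraries), noon (3), 2 pm (1), 3 pm (3) and 3 am on day 2 (2). A further 3 libraries from 8 am are labelled as controls. The ant treatments concern colonies of Pseudomyrmex ferrugineus, the ant partner of the tree. Ants had been removed for 2 days (3 libraries), replaced under the label Gracilis (3) or replaced after 2 days (1, labelled 9 am). In a further group gut contents had been applied (2). The labels give no clock time for the other ant treatments, so treatment and hour cannot be told apart there. For the 3 am and 8 am groups the hour cannot be told apart from the day or from the series they belong to. Nectaries are mixed tissue: fewer cells of a type and less RNA per cell cannot be told apart. Genes with several copies in the tree may share 1 locus name, so the counts of SUS1, SUS3 and other family members are uncertain to that extent. No gene lengths were given, so levels are not compared between genes.

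The values summed to between 21084266 and 32520511 per library. Every 9 am and 3 pm library was most like a library of another group: 9 am sample 3 was nearest to 3 am sample 1 (Pearson r = 0.971 over all genes tested), and 3 pm sample 2 to noon sample 2 (r = 0.988). Noon samples 1 and 3 (r = 0.994) and samples 2 and 3 without ants (r = 0.993) were nearly identical. Tests that rest on these groups are given below with the libraries that decide them. All tests save those of ratios are from limma on log2(value + 1), a scale that understates changes of low genes. The p-values from limma were adjusted over the 12264 genes tested by the method of Benjamini and Hochberg and called under 0.05.

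**Figure D1:**
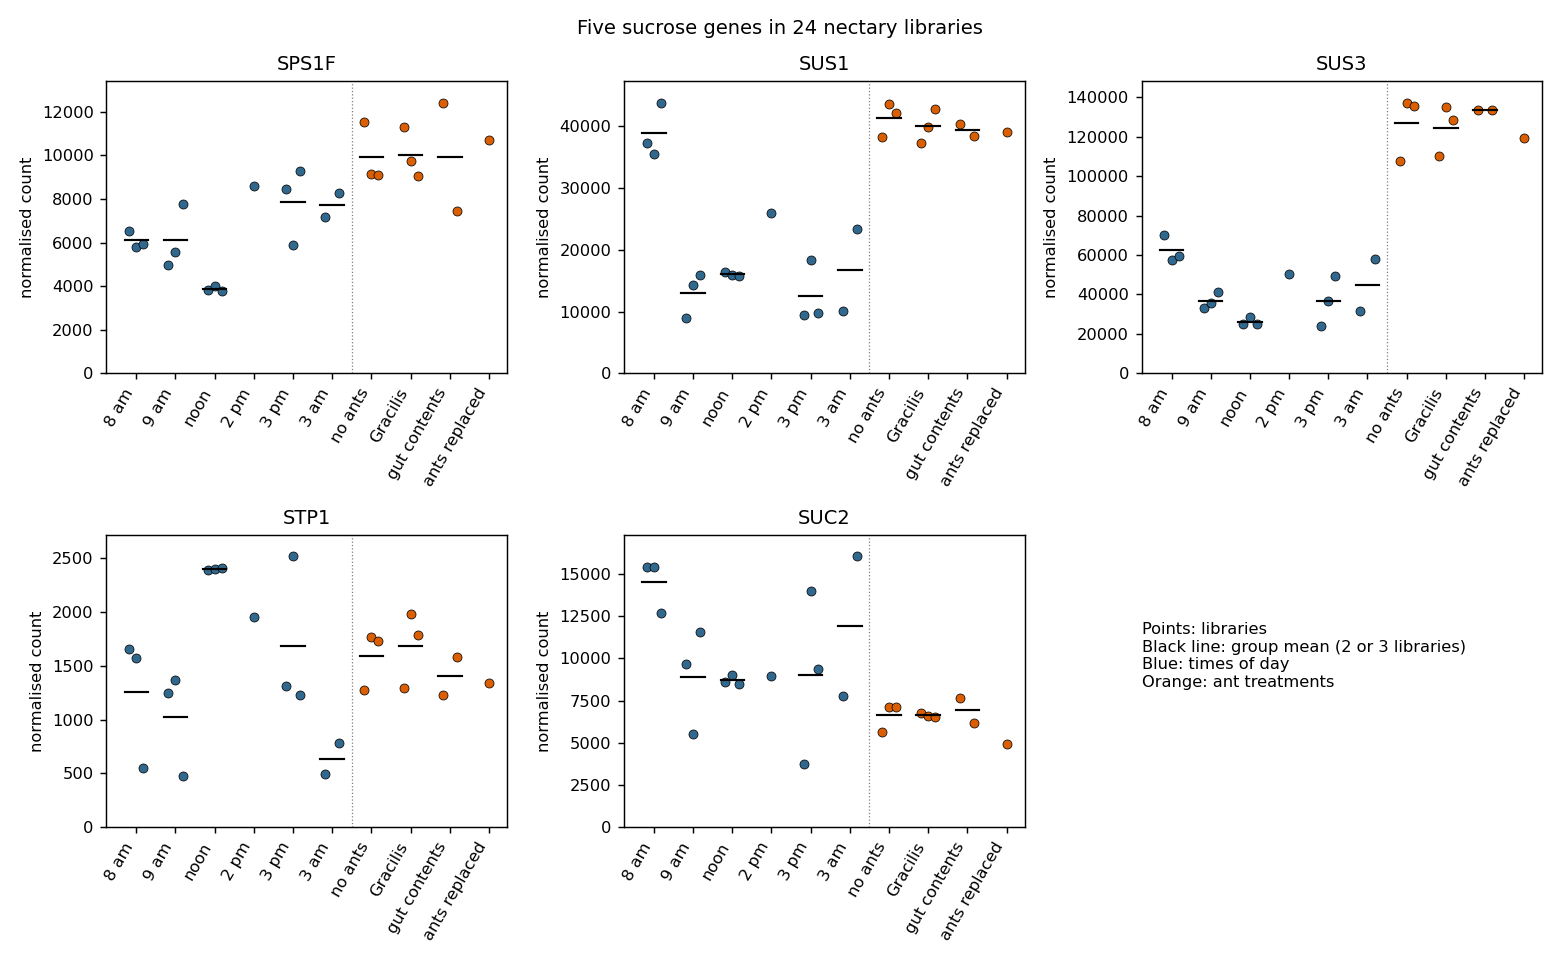
Normalised count (linear axis from 0) of the 5 genes in each library, by group; points are libraries, black lines are means of groups with 2 or 3 libraries, blue marks times of day and orange ant treatments. SUS3 lies between 107880 and 137181 in the 9 ant treatment libraries and at or below 70216 in the other 15, whereas SUS1 at 8 am already lies in the range of the ant treatments.

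Across the times of day, both sucrose synthase genes were highest in the 8 am controls, STP1 was highest at noon and SPS1F was lowest at noon. SPS1F, SUS1, SUS3 and STP1 differed between 9 am, noon, 3 pm, 3 am and 8 am by the moderated F test (adjusted p = 0.00683, 0.00119, 0.0122 and 0.0172), which is 4 of 5 genes where 39.7% of all genes tested were called. SUC2 did not pass (adjusted p = 0.222). With the 8 am controls left out, 2 genes remained, SPS1F and STP1, while SUS1 and SUS3 had adjusted p = 0.582 and 0.268. Calls over all 12264 genes fell as well, from 4865 to 2082. In pairs of times, 11 of 50 tests were called.

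By pair, 8 am differed from noon in 4 of the 5 genes (37.4% of all genes called), from 3 pm in 2 (36.8%) and from 9 am in 1 (14.2%). Noon differed from 9 am in 1 gene (12.4%), 3 am from noon in 2 (20.3%) and 3 am from 3 pm in 1 (19.6%). In limma none of the 5 was called between 3 pm and 9 am (0% of all genes) or 3 am and 9 am (0%), and in each pair 0 of 5 had a p under 0.05 before adjustment. None was called between 3 pm and noon (0%) or 8 am and 3 am (0.832%), where 1 of 5 had such a p in each. Groups at 8 am and noon did not overlap in any of the 5, as in 65.7% of all genes. The median change of all genes was 0.21 for noon against 9 am and 0.14 for 8 am against 9 am on the log2 scale, and lay within 0.1 of 0 in the other called pairs.

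SPS1F, which makes sucrose phosphate, had its lowest values of all 24 libraries at noon. It was counted at 3841, 4020 and 3781 at noon, at 4961, 5576 and 7768 at 9 am, at 6546, 5820 and 5940 at 8 am, at 7188 and 8286 at 3 am and at 8467, 5869 and 9308 at 3 pm. The single 2 pm library had 8592. Noon thus overlapped with no other time, while 9 am, 8 am, 3 am and 3 pm followed each other with ranges that overlap their neighbours, save 8 am and 3 am. It was higher at 3 am than at noon (log2 fold change 0.99 ± 0.23 SE, adjusted p = 0.00758) and at 8 am than at noon (0.65 ± 0.21, adjusted p = 0.0198). The afternoon mean of 7881 ± 1793 (SD, n = 3) lay 1.00 ± 0.21 above noon on the log2 scale without passing (adjusted p = 0.138). It passed without 3 pm sample 2, the library most like noon (1.19, adjusted p = 0.00235). Leaving that library out took the calls over all genes from 0 to 1366. The difference of noon from 9 am was -0.63 ± 0.21 (adjusted p = 0.0542), and -0.76 without 9 am sample 1 (adjusted p = 0.0248). Without that sample, calls over all genes went from 1516 to 2596.

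The calls of SPS1F depended on single libraries. Between 3 am and noon the call was lost without 3 am sample 2 (adjusted p = 0.0684). Between 8 am and noon it was lost without 8 am sample 1 (adjusted p = 0.0657), noon sample 1 (0.0534) or noon sample 3 (0.0575), and under scaling to library totals or quantiles, where the change was 0.42 and 0.40 (adjusted p = 0.154 in both).

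SUS1, a sucrose synthase that in Arabidopsis responds to low oxygen, separated the 8 am controls from every other time. Counts at 8 am were 37276, 35463 and 43801. They were 8900, 14344 and 15988 at 9 am, 16419, 15980 and 15692 at noon, 9456, 18390 and 9851 at 3 pm, 10111 and 23394 at 3 am and 25977 in the 2 pm library. No library of another time reached the lowest 8 am value, and the ranges of 9 am, 3 pm, noon and 3 am overlap. SUS1 was higher at 8 am than at 3 pm by 1.69 ± 0.28 on the log2 scale (adjusted p = 0.000312), than at 9 am by 1.61 ± 0.28 (adjusted p = 0.00162) and than at noon by 1.27 ± 0.28 (adjusted p = 0.00226). Against 3 am the difference of 1.33 ± 0.32 did not pass (adjusted p = 0.0597). The change from noon shrank to 0.60 under quantile normalisation (adjusted p = 0.0872), and the call against 9 am was lost in a fit of those 2 groups alone (adjusted p = 0.0667).

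SUS3, a second sucrose synthase, was also highest at 8 am among the times but less apart. Its counts were 70216, 57593 and 59308 at 8 am, 33374, 35867 and 41482 at 9 am, 25024, 28653 and 25119 at noon, 23859, 36863 and 49480 at 3 pm, 31452 and 57826 at 3 am and 50432 at 2 pm. The 8 am range lay above 9 am, noon and 3 pm and met that of 3 am, whose samples lay far apart. SUS3 was higher at 8 am than at noon by 1.25 ± 0.26 on the log2 scale (adjusted p = 0.00130) and than at 3 pm by 0.82 ± 0.26 (adjusted p = 0.0197). Against 9 am the difference was 0.76 ± 0.26 (adjusted p = 0.0579), and 0.84 without 9 am sample 3 (adjusted p = 0.0410). Without that sample, calls over all genes went from 1743 to 2933. The call against 3 pm was lost without 3 pm sample 1 (0.54, adjusted p = 0.0965) or 8 am sample 1 (0.73, adjusted p = 0.0707), and quantile normalisation took the changes from noon and 3 pm to 0.57 and 0.37 (adjusted p = 0.119 and 0.302).

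Marker genes of some tissues were higher along with SUS1 and SUS3 at 8 am than at noon or 3 pm, though not in every list and pair. Of 5 nectary markers 3 were higher at 8 am than at noon, where 37.4% of all genes were called in either direction, and their sums were 230686 to 285984 at 8 am, 20255 to 22328 at noon and 11787 to 29139 at 3 pm. Leaf mesophyll markers were higher at 8 am in 4 of 7 cases against noon and in 7 of 7 against 3 pm, with sums of 160953 to 216410 at 8 am, 92750 to 96615 at noon and 43902 to 101132 at 3 pm. Xylem markers were higher in 6 of 10 cases against 3 pm (36.8% of all genes called), though their sums of 10836 to 25057 and 5919 to 15915 overlap. Against noon, 0 of 10 xylem markers were higher and 1 was lower. Of 9 phloem markers 0 were higher at 8 am than at noon and 2 were lower, with a median of -0.87. Against 9 am (14.2% of all genes called) 3 of 5 nectary markers were higher, but 0 of 7 mesophyll and 0 of 10 xylem markers were called. No marker of these tissues was called against 3 am. The part of these tissues in the higher SUS1 and SUS3 at 8 am was not tested.

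STP1, the hexose carrier, had tight and high values at noon and its lowest ones scattered over 9 am, 3 am and 8 am. It was counted at 2391, 2398 and 2405 at noon, at 1316, 2516 and 1227 at 3 pm and at 1957 at 2 pm. Counts were 1243, 1363 and 475 at 9 am, 1657, 1571 and 550 at 8 am and 493 and 781 at 3 am. Noon overlapped with no time except 3 pm, through 3 pm sample 2, the library most like noon. The low 9 am value of 475 is that of sample 3, the library most like 3 am sample 1, which had 493.

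STP1 was higher at noon than at 9 am by 1.37 ± 0.41 on the log2 scale (adjusted p = 0.0418). It was lower at 3 am than at noon by -1.95 ± 0.46 (adjusted p = 0.00829), at 3 am than at 3 pm by -1.36 ± 0.46 (adjusted p = 0.0463) and at 8 am than at noon by -1.09 ± 0.41 (adjusted p = 0.0462). These calls rest on few libraries. Without 9 am sample 3 the rise to noon was 0.88 (adjusted p = 0.204), and without noon sample 1, 2 or 3 its adjusted p was 0.104, 0.116 and 0.109. Without 8 am sample 3 the difference between 8 am and noon was -0.57 (adjusted p = 0.277), and without noon sample 1, 2 or 3 its adjusted p was 0.0956, 0.0983 and 0.0976. Without 3 am sample 1 the differences of 3 am from noon and from 3 pm were -1.62 (adjusted p = 0.113) and -1.03 (adjusted p = 0.285), and the F test gave adjusted p = 0.0590. The call between 3 am and 3 pm was also lost without 3 am sample 2 (adjusted p = 0.0928) or 3 pm sample 2 (adjusted p = 0.144).

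SUC2, the sucrose loader of the phloem, varied widely among the samples of 9 am, 3 pm and 3 am. Its counts were 15441, 15403 and 12709 at 8 am, 7795 and 16050 at 3 am, 3735, 13994 and 9377 at 3 pm, 9689, 5499 and 11550 at 9 am, 8591, 9013 and 8504 at noon and 8986 at 2 pm. The 8 am libraries lay above those of 9 am and noon, and overlapped with 3 pm and 3 am. No pair of times was called, and the differences of 8 am were 0.73 ± 0.36 from noon (adjusted p = 0.121), 0.77 ± 0.36 from 9 am (adjusted p = 0.165) and 0.87 ± 0.36 from 3 pm (adjusted p = 0.0665). Without 3 pm sample 2 the F test was passed (adjusted p = 0.0483), and 8 am exceeded 3 pm by 1.29 (adjusted p = 0.0106). Calls over all genes went from 4865 to 5455 in that F test and from 4516 to 4101 between 8 am and 3 pm.

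**Figure D2:**
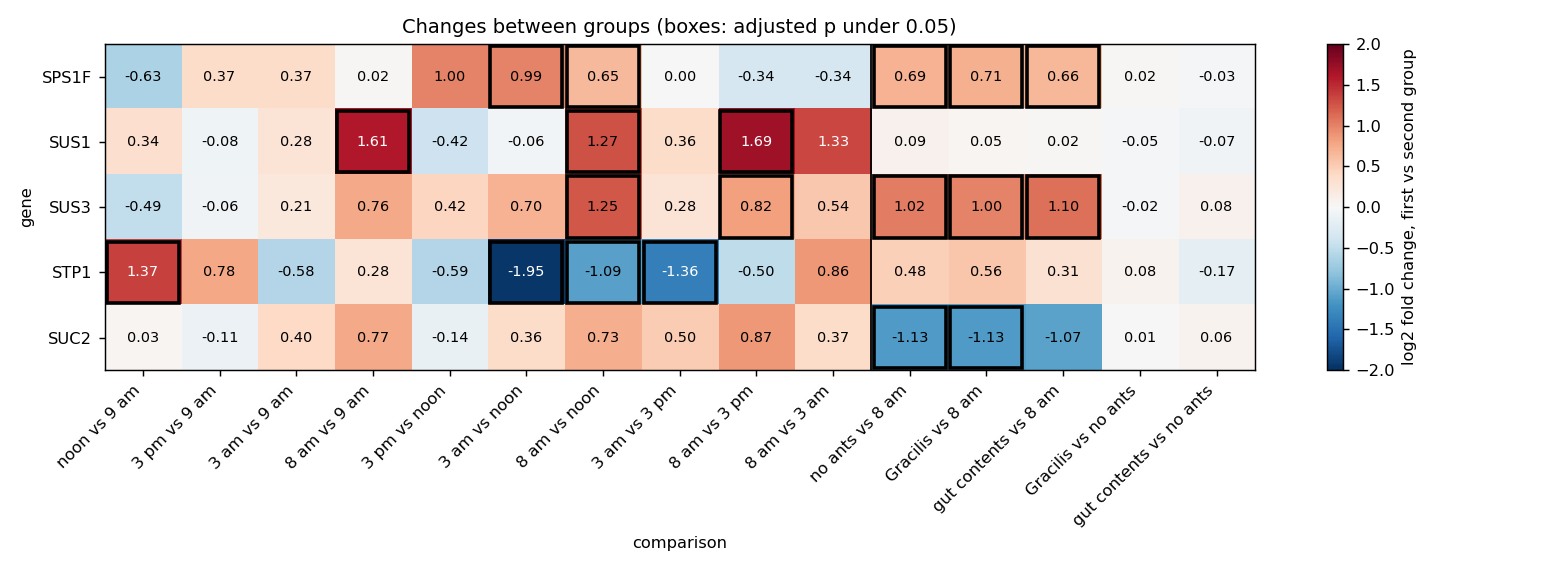
Log2 fold change of each gene (rows) in each comparison of 2 groups (columns), first group against second; the colour scale is cut at -2 and 2 and boxes mark adjusted p under 0.05. The 3 comparisons of ant treatments with 8 am carry like values, such as 1.02, 1.00 and 1.10 for SUS3, and share the same control libraries.

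Against the 8 am controls, nectaries of all 3 replicated ant treatments had more SPS1F and SUS3, and those without ants or with Gracilis had less SUC2, while SUS1 and STP1 did not pass. In the F test over 8 am, ant removal, Gracilis and gut contents, SUS3 (adjusted p = 0.0120) and SPS1F (adjusted p = 0.0382) were called, 2 of 5 genes where 22.3% of all genes were called. SUC2 had adjusted p = 0.0626, STP1 0.798 and SUS1 1.00. By pair, 3 genes were called after ant removal (27.5% of all genes), 3 with Gracilis (30.4%) and 2 with gut contents (22%). Their groups did not overlap with 8 am in 3 of 5 genes in each comparison, against 53.2% of all genes after ant removal, 54.3% with Gracilis and 57.3% with gut contents. These 3 comparisons share the 8 am libraries, so their likeness gives no independent support. The library with ants replaced after 2 days, without a replicate, lay in the range of the other ant treatments in SPS1F, SUS1, SUS3 and STP1 and below it in SUC2.

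SPS1F rose. It was counted at 11525, 9132 and 9099 without ants, at 11324, 9743 and 9056 with Gracilis, at 12422 and 7454 with gut contents and at 10730 with ants replaced, against 6546, 5820 and 5940 at 8 am. No ant treatment library was as low as an 8 am control. The log2 fold change was 0.69 ± 0.21 without ants (adjusted p = 0.0195), 0.71 ± 0.21 with Gracilis (adjusted p = 0.0149) and 0.66 ± 0.23 with gut contents (adjusted p = 0.0491). Of the 9 ant treatment libraries 5 lay above every time of day library, and the others were in the range of 3 pm.

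Several single libraries ended these calls. Without 8 am sample 2 the adjusted p was 0.0686 for ant removal, 0.0548 for Gracilis and 0.126 for gut contents. The call for ant removal was also lost without 8 am sample 3 (0.0540) or sample 1 without ants (0.0741), and that for Gracilis without Gracilis sample 1 (0.0580). For gut contents the change was 0.29 without gut sample 1 (adjusted p = 0.531), and the call was lost without 8 am sample 1 (0.0650) or 8 am sample 3 (0.101) and under every other scaling (adjusted p from 0.0722 to 0.107). The F test missed without any 1 of the 8 am samples 1, 2 and 3 (0.0882, 0.190 and 0.153), Gracilis samples 1 and 2 (0.0609 and 0.0591) or samples 1, 2 and 3 without ants (0.0523, 0.0508 and 0.0504).

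SUS3 rose. Counts were 107880, 137181 and 135397 without ants, 109945, 135207 and 128369 with Gracilis, 133360 and 133530 with gut contents and 119356 with ants replaced, while the 8 am controls had 70216, 57593 and 59308. All 9 ant treatment libraries lay above all 15 time of day libraries. The log2 fold change was 1.02 ± 0.26 without ants (adjusted p = 0.00766), 1.00 ± 0.26 with Gracilis (adjusted p = 0.00792) and 1.10 ± 0.29 with gut contents (adjusted p = 0.0118). A test for a change of more than 2-fold was not passed (adjusted p = 1 in all 3). The calls for ant removal and Gracilis held without each library of the groups compared. That for gut contents was lost without either gut sample (adjusted p = 0.0767 and 0.0607), and the F test missed without 8 am sample 2 (0.0895) or 3 (0.0671).

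SUS1 did not pass in any ant treatment. It was counted at 38261, 43573 and 42056 without ants, at 37348, 39866 and 42731 with Gracilis, at 40338 and 38392 with gut contents and at 39013 with ants replaced. Every one of these values lies within the range of the 8 am controls, 35463 to 43801. The change was 0.09 without ants (95% interval -0.51 to 0.69), 0.05 with Gracilis (-0.55 to 0.64) and 0.02 with gut contents (-0.64 to 0.69), so the data leave room for changes of up to 0.69 on the log2 scale.

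STP1 overlapped with 8 am in every ant treatment. Its counts were 1276, 1770 and 1728 without ants, 1295, 1984 and 1782 with Gracilis, 1230 and 1584 with gut contents and 1342 with ants replaced, against 1657, 1571 and 550 at 8 am. The intervals of the change reached from -0.39 to 1.35 without ants, -0.31 to 1.43 with Gracilis and -0.66 to 1.28 with gut contents.

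SUC2 fell. Counts were 5642, 7123 and 7149 without ants, 6737, 6601 and 6532 with Gracilis, 7670 and 6191 with gut contents and 4901 with ants replaced, all below the lowest 8 am control of 12709. The log2 fold change was -1.13 ± 0.36 without ants (adjusted p = 0.0281), -1.13 ± 0.36 with Gracilis (adjusted p = 0.0258) and -1.07 ± 0.41 with gut contents (adjusted p = 0.0667, not called). Against the other times the gap was less clear, since 9 am sample 2 had 5499 and 3 pm sample 1 had 3735. The variable 9 am and 3 pm groups were left out in a fit added after seeing the data. There gut contents (adjusted p = 0.00213) and the F test (adjusted p = 0.000948) passed as well. Over all genes, calls in that fit rose too, from 2702 to 5155 with gut contents and from 2731 to 5162 in the F test.

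The SUC2 calls were lost without 8 am sample 1 (adjusted p = 0.0700 for ant removal and 0.0664 for Gracilis) or 8 am sample 2 (0.0865 and 0.0789). They were also lost without any 1 of samples 1, 2 and 3 without ants (0.0820, 0.0590 and 0.0586) or of Gracilis (0.0536, 0.0666 and 0.0665). The change itself stayed between -1.22 and -1.02 for ant removal under every alternative.

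Between ant treatments limma called none of the 5. With Gracilis against ant removal it called 0 of 5 (0% of all genes), with 0 of 5 under 0.05 before adjustment, and the changes lay between -0.05 and 0.08 on the log2 scale. With gut contents against ant removal, 0 of 5 were called (0.0652% of all genes), again with 0 of 5 under 0.05 before adjustment. The narrowest 95% interval was that of SPS1F with Gracilis, -0.41 to 0.45, and the widest that of STP1 with gut contents, -1.14 to 0.80.

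**Figure D3:**
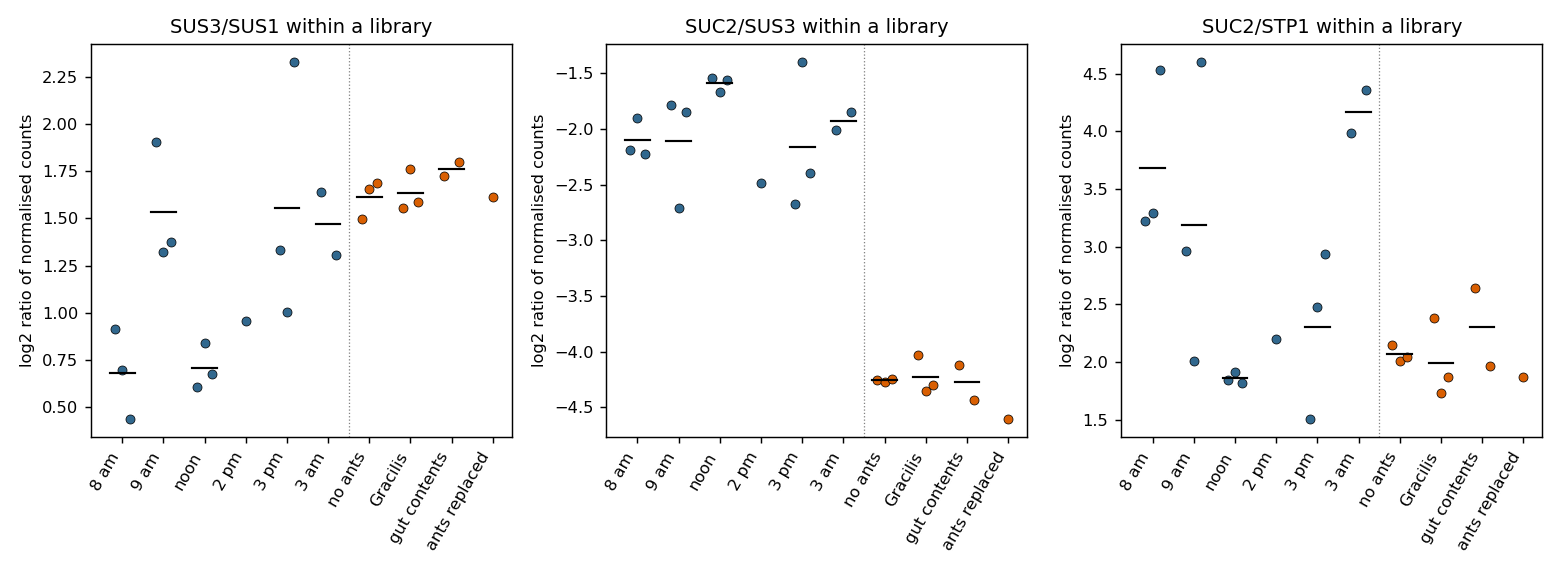
Log2 ratio of the normalised counts of 2 genes within a library (axes do not start at 0), by group; points are libraries, black lines are group means, blue marks times of day and orange ant treatments. SUC2 relative to SUS3 lies between -2.71 and -1.40 in the times of day and between -4.61 and -4.03 in the ant treatments.

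Ratios of 2 genes within a library do not depend on a scaling by 1 factor per library. Whether the deposited values were scaled in that way is not known. They are not levels per length, so only their change between groups can be read. SUS3 relative to SUS1 averaged 0.68 ± 0.24 (SD, n = 3) at 8 am, 1.61 ± 0.10 without ants, 1.64 ± 0.11 with Gracilis and 1.76 ± 0.05 (n = 2) with gut contents. Noon, at 0.71 ± 0.12, was near 8 am, whereas 9 am (1.53 ± 0.32), 3 pm (1.56 ± 0.69) and 3 am (1.47 ± 0.23) were near the ant treatments. SUC2 relative to SUS3 averaged -2.10 ± 0.17 at 8 am and -4.26 ± 0.01 without ants, a difference of -2.15 in which the groups do not overlap. SUC2 relative to STP1 averaged 4.17 ± 0.27 at 3 am, 3.68 ± 0.74 at 8 am and 1.86 ± 0.05 at noon. For each of these differences of 8 am from ant removal, and of noon from 3 am, the 2-sided exact permutation test gave p = 0.1, the smallest p that this number of libraries allows.

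The other genes of sucrose and hexose handling were read from 6 lists of 93 loci, of which 49 are in the table and 47 were tested. For sucrose synthesis, 2 of 10 genes passed after ant removal, where 27.5% of all genes were called, 1 higher (SPS1F) and 1 lower. SPS4F, another sucrose-phosphate synthase, fell to 79.0 ± 11.4 from 359 ± 180 (log2 fold change -2.01 ± 0.47, adjusted p = 0.00431), opposite to SPS1F. The median change of the list was -0.22, against -0.05 over all genes. SPS3F, the third of the family, averaged 1053 ± 288 at 8 am and 341 ± 64.5 at noon (1.60 ± 0.34, adjusted p = 0.00141) and did not pass between 8 am and ant removal.

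Of the 6 lists sucrose cleavage had the most calls, 8 of 12 genes after ant removal (27.5% of all genes called), 3 higher and 5 lower, with a median change of -0.30. The other sucrose synthase of the list, SUS6, which in Arabidopsis works in sieve elements of the phloem, went against SUS3: it fell to 34.3 ± 8.62 from 855 ± 465 (-4.45 ± 0.61, adjusted p = 0.000119). The cell wall invertases CWINV2 and CWINV4 fell too, CWINV2 to 1612 ± 407 from 13989 ± 2887 (-3.13 ± 0.40, adjusted p = 7.15e-05) and CWINV4 to 11309 ± 2365 from 85673 ± 15035 (-2.93 ± 0.41, adjusted p = 0.000124). CWINV3, named for the same family, went the other way, with 22434 ± 1007 against 13536 ± 1458 (0.73 ± 0.19, adjusted p = 0.00898). INVB, a neutral invertase, was called higher from low counts, 9 to 35 without ants against 0 to 4 at 8 am. With Gracilis 2 of 12 rose and 4 fell (30.4% of all genes called), and with gut contents likewise 2 rose and 4 fell (22%).

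At 8 am against noon, where 37.4% of all genes were called, the same list had 7 genes higher and 2 lower, with a median of 0.82 against -0.09 over all genes. CWINV4 (2.32 ± 0.41, adjusted p = 0.000370) and CWINV2 (2.25 ± 0.40, adjusted p = 0.000416) rose with SUS1 and SUS3, and INVA, a neutral invertase of mitochondria in Arabidopsis, rose by 0.94 ± 0.18 (adjusted p = 0.000795). In the ant treatments SUS1 stayed in the 8 am range, while CWINV2 and CWINV4 were lower than at 8 am after ant removal. Under quantile normalisation SUS1, SUS3 and CINV1, a neutral invertase, were no longer called.

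Hexose phosphorylation, which follows cleavage, fell in 3 of 5 genes after ant removal (27.5% of all genes called), with a median of -0.95. FRK1, a fructokinase, averaged 1262 ± 138 against 4733 ± 2776 (-1.76 ± 0.36, adjusted p = 0.00202) and HXK2, a hexokinase, 1349 ± 75.7 against 2619 ± 416 (-0.95 ± 0.18, adjusted p = 0.00116). At 8 am HXK2 was 1.45 ± 0.18 above noon (adjusted p = 1.95e-05).

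Among sucrose carriers, SUC2 was the 1 of 4 genes called after ant removal, a share near the 27.5% of all genes, and the list's median was -0.04. SUC4, a vacuolar sucrose carrier in Arabidopsis, averaged 5261 ± 1045 at 8 am and 6354 ± 358 without ants, and was higher at 8 am than at noon (1.27 ± 0.20, adjusted p = 0.000141), where SUC2 did not pass. Of 8 hexose carriers 1 rose after ant removal, under that share of all genes: STP14, with 1075 ± 578 against 239 ± 94.4 (2.04 ± 0.67, adjusted p = 0.0309). STP5, like STP1, was lower at 3 am and 8 am than at noon: it averaged 1237 ± 145 at noon, 304 ± 38.2 at 3 am (-2.02 ± 0.48, adjusted p = 0.00827) and 232 ± 64.3 at 8 am (-2.44 ± 0.43, adjusted p = 0.000370). STP13 ran the other way and was 1.50 ± 0.21 higher at 8 am than at noon (adjusted p = 5.48e-05).

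Of 8 SWEET exporters 2 fell after ant removal, a share near the 27.5% of all genes called. They were SWEET11, which in Arabidopsis leaves passes sucrose towards the phloem (128 to 587 against 955, 1742 and 6761, -2.70 ± 0.64, adjusted p = 0.00488), and SWEET3 (729 ± 109 against 1945 ± 457, -1.40 ± 0.42, adjusted p = 0.0213). SWEET9 had 242141 ± 80845 without ants and 174589 ± 43459 at 8 am, and did not pass. Called genes of these 6 lists turned sign under no other scaling in any comparison.

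**Figure D4:**
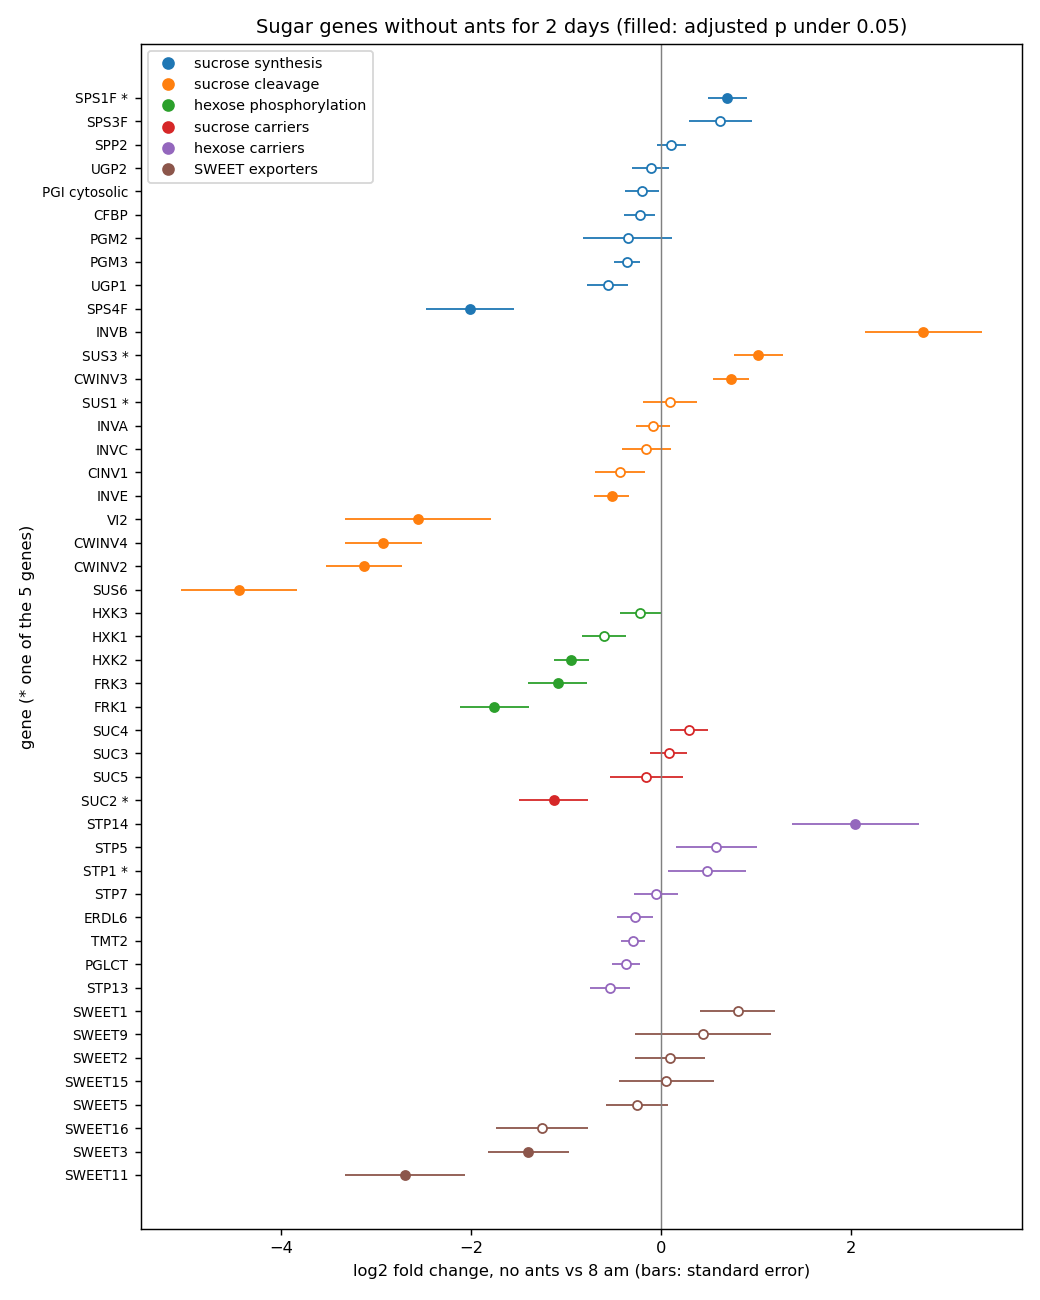
Log2 fold change of each tested gene of the 6 sugar lists after ant removal against 8 am, with standard errors; colours are lists, filled points have adjusted p under 0.05 and stars mark the 5 genes. SUS3 and SUS6 lie on opposite sides of 0, at 1.02 and -4.45, as do SPS1F and SPS4F, at 0.69 and -2.01.

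SUC2, SUS6 and SWEET11 are phloem genes in Arabidopsis. Of 9 phloem markers tested, 2 fell after ant removal and 0 rose, a share near the 27.5% of all genes called: SEOR1, a protein of sieve elements, averaged 4919 ± 874 against 16388 ± 4688 (-1.71 ± 0.56, adjusted p = 0.0312), and FTIP1 changed by -1.55 ± 0.50 (adjusted p = 0.0299). The median of the 9 markers was -0.60. Under quantile normalisation NAKR1, another marker of this list, was called higher after ant removal (1.59, adjusted p = 0.0189). The 10 phloem markers in the table summed to between 7946 and 9111 without ants, 8637 and 9728 with Gracilis, 8977 and 9827 with gut contents, and 17205 and 26837 at 8 am. AHA3, a proton pump of companion cells, was at 0 in 10 of 24 libraries and never above 30. The sum is mostly SEOR1, and at 2 pm it was 77404, of which SEOR1 made 71023, while SUC2 was at 8986. The part of phloem content in the fall of SUC2 was not tested.

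Xylem markers fell in 6 of 10 cases after ant removal and VND7 rose, with a median of -2.63 and sums of 5238 to 7634 against 10836 to 25057 at 8 am. Leaf mesophyll markers fell in 2 of 7 cases, near the share of all genes, with sums of 80104 to 111050 against 160953 to 216410. Guard cell markers fell in 1 of 5 cases, under that share, with sums of 1195 to 1741 against 2415 to 2722. Nectary markers fell in 3 of 5 cases, CWINV4, BOP1 and PIN6, while their sum, mostly SWEET9, was 163618 to 308074 against 230686 to 285984. The part of these tissues in the changes of the 5 genes was not tested.

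**Figure D5:**
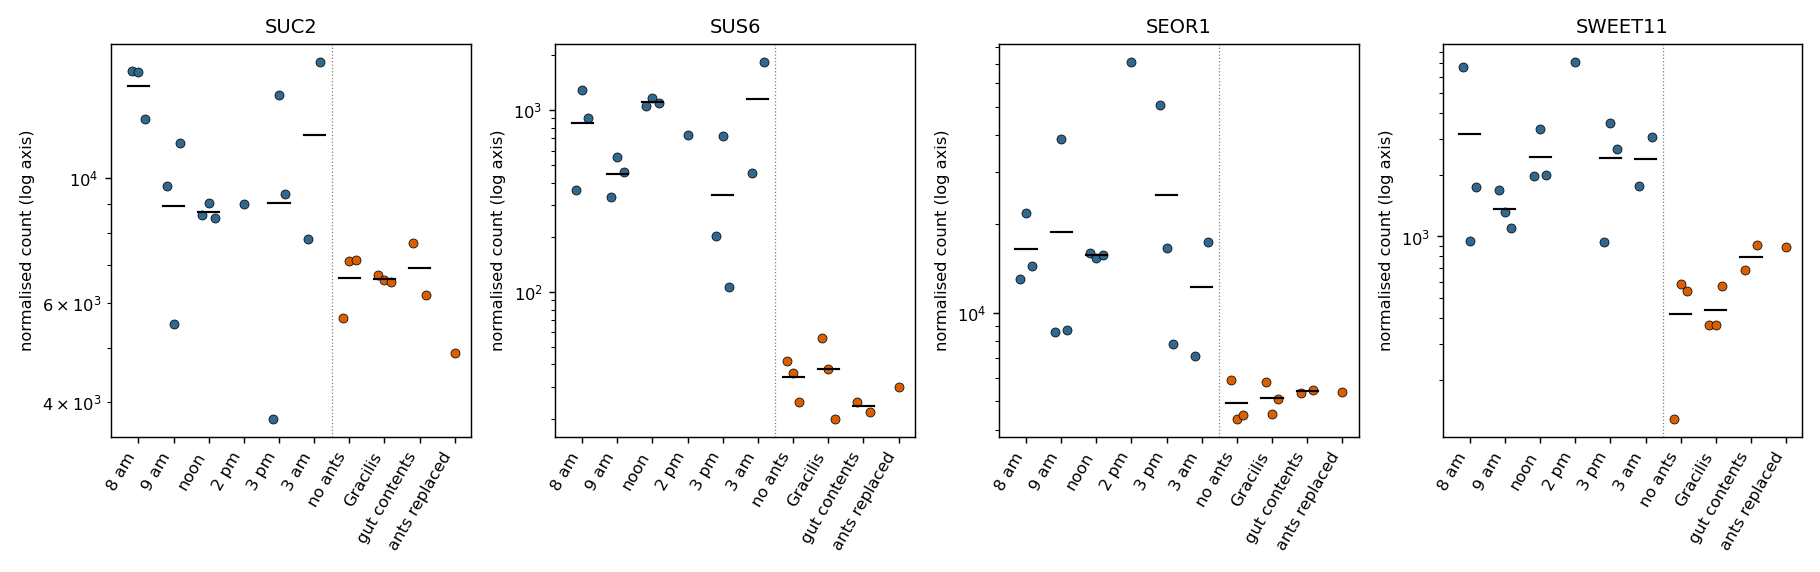
Normalised counts (log axes) of SUC2, SUS6, SEOR1 and SWEET11 in each library, by group; points are libraries, black lines are arithmetic group means, blue marks times of day and orange ant treatments. SUS6 lies at 56 or below in the 9 ant treatment libraries and at 106 or above in the other 15, whereas 9 am sample 2 (5499) lies within the SUC2 range of the ant treatments, 4901 to 7670, and 3 pm sample 1 (3735) below it.

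The genes whose pattern over the 24 libraries was most like each of the 5 were found by Pearson's r of log2(value + 1), as a description. The libraries share groups, so groups of high and low libraries raise all these values. SPS1F went with AT4G32770, the tocopherol cyclase also called sucrose export defective 1 (r = 0.90, Spearman rho = 0.87), AT2G47770, a TSPO-like membrane protein (0.89 and 0.90), and AT4G38810, a calcium-binding protein (0.88 and 0.90). SUS3 went with AT5G46860, a syntaxin (0.98 and 0.96), AT2G20900, diacylglycerol kinase 5 (0.96 and 0.94), and AT1G06650, a 2-oxoglutarate-dependent oxygenase (0.96 and 0.91). SUS1 went with AT4G11740, a ubiquitin-like protein (0.95 and 0.85), AT3G16630, a P-loop hydrolase (0.95 and 0.88), and AT2G25800 (0.93 and 0.83).

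STP1 went with AT1G02910, a tetratricopeptide repeat protein (r = 0.90, rho = 0.71), AT4G01870, a tolB-like protein (0.89 and 0.71), and AT3G06080, a trichome birefringence-like protein (0.89 and 0.83). SUC2 went with AT4G04640, the gamma subunit of an ATP synthase (0.85 and 0.83), AT1G25530, an amino acid transporter (0.84 and 0.81), and AT1G42970, the B subunit of glyceraldehyde-3-phosphate dehydrogenase, GAPB, which is also on the mesophyll list (0.84 and 0.81).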

How the data were processed

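RNA of pooled extrafloral nectaries was sequenced from TruSeq RNA v2 libraries in paired 50 bp reads, per the labels' protocols. The authors deposited 1 table of normalised counts, treated as a score because its scaling is not given in the sources used here, nor are aligner, assembly, annotation or strand. Values are whole numbers, the reads behind them were not recovered, and the depth is therefore unknown. The closest Arabidopsis locus names each gene, per the file headers.

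Genes averaging at least 10 were tested (12264, with 386 left out) on log2(value + 1) in limma 3.58.1 (R 4.3.3), with 1 coefficient for each of the 10 groups, a mean-variance trend and 14 residual degrees of freedom. Tests were 2-sided moderated tests. The 2 pm library and that with ants replaced after 2 days have no replicate and got values only. Nothing in the labels says that replicates shared no plants, so p-values measure the spread between these samples. The test was checked on simulated data. Ratios were tested by exact permutation, without adjustment.

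The 5 genes and the lists (137 loci, 84 in the table) were chosen with earlier results of these data known. Named beside the 5 genes are up to 4 called genes per list and comparison with the smallest adjusted p, and the 3 genes with the highest r for each. SWEET9 and SUC4 without ants, SPS3F without ants, NAKR1 without ants, CINV1, CWINV3, VND7 and AHA3 were added after their values were seen. Sample numbers went together by the rule used (all correlations of deviations over 0.1, with 3 pairs) for 8 am against 9 am (0.16 to 0.42) and Gracilis against ant removal (0.22 to 0.51), a pairing that the labels do not give. Alternatives were other pseudocounts, filters, scalings, weights, groups compared alone, a replicate block, a 2-fold minimum, merged near-identical pairs and left-out libraries.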

Additional observations from a re-analysis of the deposited data

How the results depend on the processing

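No called change of the 5 genes turned direction under any alternative run. Of 29 single-gene results, 3 stayed on the same side of the threshold throughout: SPS1F across times, and SUS1 and STP1 across ant treatments, the latter 2 uncalled. The 2-fold minimum, at which no pair of groups was called for the 5 genes, lowers this count. SUS1 at 8 am against 3 pm, and SUS3 after ant removal and with Gracilis, were lost under that setting alone. Across ant treatments the 2 genes called became 1 under median-of-ratios scaling, scaling to library totals, quantile normalisation or merged near-identical pairs, and 0 to 2 with 1 replicate left out. Over all genes, the named settings called 3027, 2918, 2741 and 2035 in that order, against 2731 as reported. SUC2 was called as well with the groups fitted alone, with library weights or without the 9 am and 3 pm groups. Calls over all genes rose in these settings too, to 4294, 6361 and 5162. Across times the 4 became 2 when the groups were fitted alone, with merged pairs or without the 8 am group (added after seeing the data), and 3 to 5 with 1 replicate left out. Over all genes, the named settings called 2983, 3201 and 2082 in that order, against 4865 as reported. Quantile normalisation lost SUS3 across times (5504 of all genes called), and library weights gained SUC2 (7315). Of the ant treatment pairs the 8 calls became 0 at a minimum of 2-fold, 5 with merged pairs and 3 to 7 with 1 replicate left out. Of the time pairs the 11 became 0 at 2-fold, 7 with merged pairs, 7 under quantile normalisation and 7 to 15 with 1 replicate left out. The cause was not tested, save that merging leaves fewer libraries. With a replicate block, fitted to the compared groups alone, the counts were 3 across times, 3 across ant treatments, 11 for time pairs and 7 for ant pairs. Against the fit as reported, the blocked fit changed no member's call in the 2 comparisons where numbers went together. Elsewhere it lost SPS1F and SUS3 with gut contents (adjusted p = 0.0861 and 0.0811). It also lost STP1 between noon and 9 am (0.0682) and SUS3 between 8 am and 3 pm (0.217). It gained SUC2 with gut contents (0.0188) and at 8 am against noon (0.00359) and STP1 at 8 am against 3 am (0.0347). Over all genes, the block called 2640, 6362 and 403 in these pairs, against 2702, 4585 and 102 as reported. Only the changes of SUS3 with gut contents and of STP1 at 8 am against 3 am needed the block. The others also occurred with the groups fitted alone and no block. That fit lost SUS1 at 8 am against 9 am too, which the blocked fit kept. Fits without the 9 am group, without 9 am and 3 pm, and without the 2 pm library were also added after seeing the data.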
